A study of Mus musculus with 6 samples.

Results

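The 41 genes described here encode subunits of protein phosphatase 1 (PP1). They are the protein-coding rows of the deposited table whose symbol begins with Ppp1c or Ppp1r, without Ppp1r15a and Ppp1r15b, out of 54532 genes in all, of which 22046 are protein-coding. Their transcripts were read from RNA sequencing of 6 libraries labelled as MIN6, a mouse beta cell line established from an insulinoma. The genotype label is PP2Ac knockdown for 3 libraries, titled sh2, and control for 3 libraries, titled shc. PP2Ac is the catalytic subunit of protein phosphatase 2A, the other major serine/threonine phosphatase of most cells. No treatment, time or clone is given in the labels, although the title of the series concerns lipid damage to beta cells, and nothing states that the libraries of a group are separate cultures. The p-values below therefore measure only the spread between these libraries, which may be technical. The extraction protocol speaks of flash-frozen tissue, although every sample is labelled as the cell line. The question put to these genes is how their transcripts differ between PP2Ac knockdown and control libraries.

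PP1 is not a single enzyme. A catalytic subunit, which exists as closely related alpha, beta and gamma isoforms, binds one of many regulatory subunits that place it at a substrate or block its active site. Inhibitor proteins such as inhibitor-1 and DARPP-32 are switched on by protein kinase A, glycogen-targeting subunits bring PP1 to glycogen synthase and phosphorylase, and myosin phosphatase targeting subunits bring it to the myosin light chain. In beta cells inhibitor-1, encoded by Ppp1r1a, is known as an abundant transcript.

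The libraries held 14614737 to 15551377 reads in knockdown and 15270436 to 16030939 reads in control. These were recovered from the deposited FPKM values (fragments scaled by gene length and a library-wide total). The total implied by those values was not the recovered sum. It was 15313400 against 15551377 reads in knockdown library 2 and 16418100 against 16030939 reads in control library 3. The target of the knockdown was lower in its libraries: Ppp2ca had 10.1, 11.4 and 10.9 FPKM in knockdown and 42.5, 34.6 and 35.6 FPKM in control, a log2 fold change of -1.70 (SE 0.0917, limma adjusted p = 5.35e-06). Of 18 beta cell markers, 10 were listed at 0 in every library, Ins1, Ins2, Nkx6-1 and Slc2a2 among them, and 2 had a mean of at least 1 FPKM. The summed level of the 18 was 8.38 to 9.78 FPKM in knockdown and 3.02 to 4.70 FPKM in control. Most of it came from the 2 above 1 FPKM, Mafa and Pdx1. Mafa averaged 4.86 FPKM in knockdown and 1.78 FPKM in control, and Pdx1 3.96 FPKM in knockdown and 1.68 FPKM in control. Summed levels of 15 stromal, endothelial and immune markers were 1134 to 1304 FPKM in knockdown and 549 to 633 FPKM in control, with 3 of them, Cdh5, Cd3e and Adgre1, at 0. Vim alone averaged 952 FPKM in knockdown and 426 FPKM in control. Col1a1 averaged 86.9 FPKM in knockdown and 9.95 FPKM in control, and Col3a1 31.7 FPKM in knockdown and 0.834 FPKM in control. Fn1 differed little, at 138 FPKM in knockdown and 129.7 FPKM in control. Of the 8 markers of this list with a mean of at least 1 FPKM, only Cd68 had a lower mean in knockdown. This immune marker averaged 2.27 FPKM in knockdown and 16.5 FPKM in control. For 10 duct and acinar markers the sums were 355 to 393 FPKM in knockdown and 681 to 849 FPKM in control, with Amy2a5, Prss1 and Pnlip among those at 0. Spp1 made up nearly all of that sum, with means of 370.6 FPKM in knockdown and 760.4 FPKM in control. Sox9 averaged 1.62 FPKM in knockdown and 7.89 FPKM in control, while Cela1 averaged 1.93 FPKM in knockdown and 0.108 FPKM in control. For 7 alpha and delta cell markers the sums were 17.7 to 21.03 FPKM in knockdown and 15.1 to 16.9 FPKM in control, with Gcg, Ppy, Sst and Ttr among those at 0. Irx2 alone made up nearly all of these sums, with means of 19.8 FPKM in knockdown and 16.2 FPKM in control. Mitochondrial mRNA took 1.23% to 1.34% of reads in knockdown and 2.65% to 3.38% in control. The part of these differences in the results below was not tested, and the libraries are named by their labels only.

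Of the 41 PP1 genes, 21 had a mean of at least 1 FPKM over the 6 libraries and were tested, 11 lay above 0 and below 1, and 9 were listed at 0 in every library. This share of 51.2% at or above 1 FPKM compares with 45.4% of all protein-coding genes, and 36.6% of the PP1 genes against 22.5% of protein-coding genes had a mean of at least 10 FPKM. Differences were tested with limma on log2(FPKM + 1) over all 11652 genes that passed the same filter, p-values adjusted by Benjamini-Hochberg and a threshold of 0.05. A fold change on that scale understates the change of low genes. In knockdown 11 of the 21 PP1 genes were higher, 4 were lower and 6 did not pass the threshold. Among the higher genes Ppp1r3e reached the filter only through its knockdown libraries. Among all tested genes 62.4% passed, 33.3% higher and 29.1% lower, so the 71.4% of PP1 genes called lie near the background. The 15 called genes were those whose 3 knockdown libraries did not overlap the 3 control libraries, a separation that 68.1% of all tested genes showed. Their changes were mostly small, with 12 of 15 below 0.5 on the log2 scale in either direction, and on the log2(FPKM + 1) scale 1 of 21, Ppp1r9b, reached 1, a size that 9.86% of all tested genes reached with a call. The median log2 fold change of the 21 was 0.19, against 0.03 over all tested genes, and the median absolute log2 fold change was 0.28, against 0.37. The count moved to 6 higher and 5 lower when protein-coding genes alone were kept, or when the mitochondrial genome's genes, rRNA and Gm23935 were dropped, each library being rescaled to its own sum. Among all tested genes 31.5% were then higher and 35.6% lower after the first of these steps, and 23.8% higher and 37.4% lower after the second. The median log2 fold change of the 21 was then 0.09 after the first step, against -0.03 over all genes, and 0.03 after the second, against -0.12. The rises of Ppp1cc, Ppp1r10, Ppp1r16a, Ppp1r18 and Ppp1r37 lost their call under both steps, with adjusted p of 0.0574 to 0.328 after the first and 0.189 to 0.689 after the second. Median-of-ratios scaling ended the calls of Ppp1cc, Ppp1r16a and Ppp1r18 (adjusted p of 0.109, 0.0504 and 0.0629), and the fit without a filter on low values the calls of Ppp1cc, Ppp1r7, Ppp1r10 and Ppp1r16a (adjusted p of 0.0554, 0.0702, 0.0568 and 0.0517). The second step shifts the median of all genes by -0.14 on the log2 scale. Without knockdown library 2 the count of higher genes was 7, and without knockdown library 1 or control library 1 the count of lower genes was 2.

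**Figure D1:**
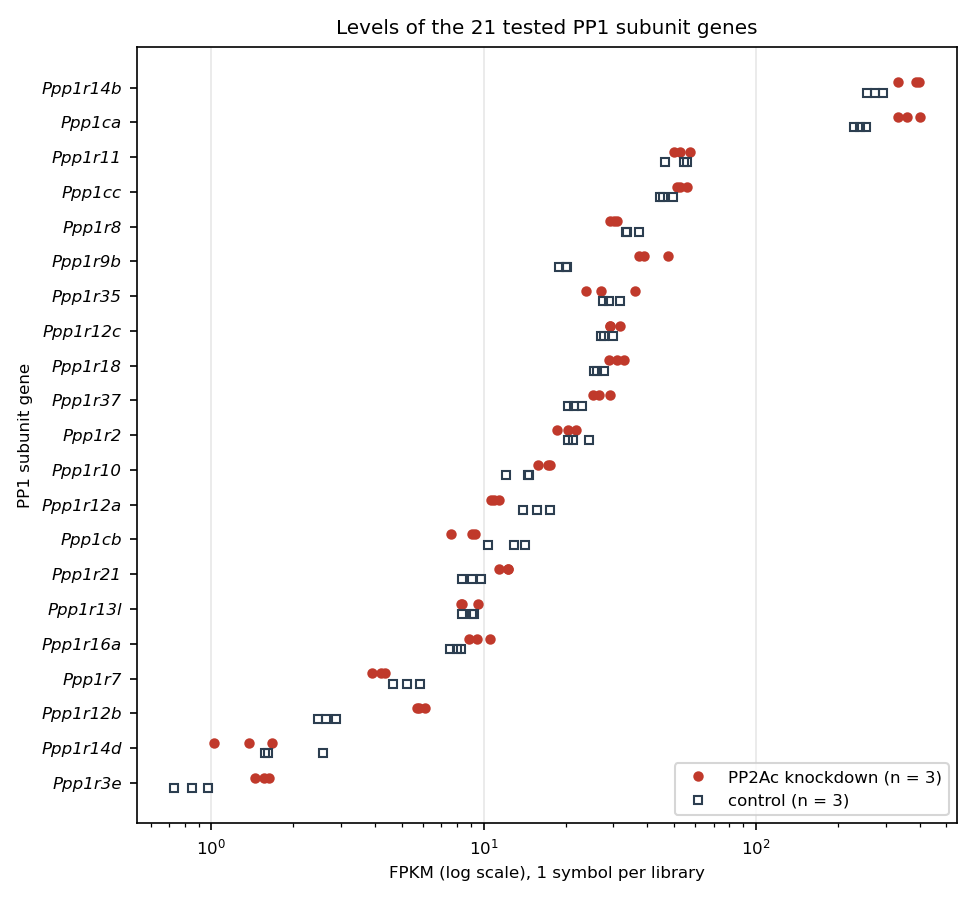
FPKM of the 21 tested PP1 subunit genes on a log axis, 1 symbol per library, with PP2Ac knockdown libraries as filled circles above and control libraries as open squares below. Ppp1r14b and Ppp1ca stand apart at the top, at 229 FPKM or more in all 6 libraries, and Ppp1r14d and Ppp1r3e lie lowest.

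The catalytic isoforms went different ways, with the alpha isoform higher and the beta isoform lower in knockdown. Ppp1ca (ENSMUSG00000040385), the alpha isoform gene on the plus strand of chromosome 19 (4192158 to 4195419, GRCm38), had 359, 399.8 and 332 FPKM in knockdown and 254, 242 and 229 FPKM in control. Every knockdown library lay above every control library. The means were 363.7 ± 33.9 FPKM in knockdown and 241.7 ± 12.4 FPKM in control (SD, n = 3 each), a log2 fold change of 0.58 (SE 0.0885, limma adjusted p = 0.000626), and this rise rests on 6847 to 8442 reads per library in knockdown and 5174 to 5603 in control. In a bulk sample a change in the level per cell and a change in the make-up of the cells cannot be told apart. Ppp1ca overlaps Rad9a, a DNA damage checkpoint gene on the opposite strand, by 222 bases, and Rad9a had a lower mean in knockdown (16.1 FPKM) than in control (22.9 FPKM). Whether the counting used strand is not given in the sources used here.

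Ppp1cb (ENSMUSG00000014956), the beta isoform gene on the plus strand of chromosome 5 (32458843 to 32517433), whose product is the catalytic partner in myosin phosphatase, had 9.07, 7.58 and 9.34 FPKM in knockdown and 14.2, 10.4 and 12.9 FPKM in control. The highest knockdown library stayed below the lowest control library. The mean fell to 69.3% of the control mean (log2 fold change -0.48, SE 0.121, limma adjusted p = 0.00874). Ppp1cc (ENSMUSG00000004455, chromosome 5, 122158278 to 122175273, plus strand), the gamma isoform gene, had 52.7, 51.3 and 55.8 FPKM in knockdown and 45.7, 44.3 and 49.6 FPKM in control. The gap between the groups was narrow, and its call with a log2 fold change of 0.19 (SE 0.0711, limma adjusted p = 0.0441) was lost without any one library except control library 3 (adjusted p of 0.0922, 0.0569 and 0.116 without knockdown library 1, 2 or 3, and 0.103 and 0.143 without control library 1 or 2), and with voom on the recovered reads (adjusted p = 0.0628). Of the 31-base words in the Ppp1cc transcripts of GENCODE M21, 41.7% also occur in other genes, most of them in Ppp1ccb, a transcribed processed pseudogene that averaged 8.40 FPKM in knockdown and 6.86 FPKM in control. Reads may have been split between them, so the Ppp1cc values are uncertain. The same share was 0.546% for Ppp1ca and 17.3% for Ppp1cb, there mostly in Gm43312, a same-strand entry within Ppp1cb that held 1 read over the knockdown libraries and 3 over the control libraries.

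Per length, Ppp1ca made up most of the catalytic transcript in every library. Its share of the summed FPKM of the 3 isoform genes was 85.3%, 87.2% and 83.6% in knockdown and 80.9%, 81.6% and 78.6% in control. The Ppp1cb share was 2.05% ± 0.359 in knockdown and 4.15% ± 0.566 in control, and the Ppp1cc share 12.6% ± 1.42 in knockdown and 15.5% ± 1.31 in control (SD, n = 3 each). For each of the 3 shares of FPKM the groups did not overlap, with a two-sided exact permutation p of 0.1, which 3 libraries against 3 cannot go below, and 0.1 after adjustment over the 3 shares. The 3 shares add up to the whole, so they are not separate results. The Ppp1cc share was lower in knockdown although its mean FPKM was higher there (53.2) than in control (46.5). The size of these shares depends on the gene lengths. The deposited length of Ppp1cb is 10913 bases, 1.83 times that of its longest coding transcript in GENCODE M21 (5962 bases), and with the longest coding transcripts the Ppp1cb share was 3.69% ± 0.612 in knockdown and 7.23% ± 0.943 in control. In recovered reads, without any scaling for length, it was 12.2% ± 1.75 in knockdown and 21.6% ± 2.37 in control, and the Ppp1ca share was 64.3% ± 3.55 in knockdown and 53.0% ± 2.65 in control, a difference of 11.3 percentage points against 5.02 in FPKM. The Ppp1cc share of reads was 23.5% ± 1.87 in knockdown and 25.4% ± 1.72 in control, with overlapping groups (two-sided exact permutation p = 0.3). The order Ppp1ca, Ppp1cc, Ppp1cb held per length in all 6 libraries.

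The summed FPKM of the catalytic genes was 420.7, 458.7 and 397 in knockdown and 314, 297 and 292 in control. The sum for Ppp2ca and Ppp2cb, the PP2A catalytic genes, was 97.7 ± 4.01 FPKM in knockdown and 138.6 ± 14.4 FPKM in control, so that the ratio of PP1 to PP2A catalytic transcript was 4.36 ± 0.332 in knockdown and 2.18 ± 0.139 in control (SD, n = 3 each). In recovered reads the ratio was 3.74 ± 0.189 in knockdown and 1.47 ± 0.0985 in control. Neither pair of groups overlapped, with a two-sided exact permutation p of 0.1 for both, the smallest possible. The denominator holds the transcripts of the knocked-down protein, so a higher ratio follows from the design. Its p-value adds no separate support. Mean recovered reads of the PP1 sum were 11864 in knockdown and 10054 in control. Those of the PP2A sum were 3177 in knockdown and 6865 in control.

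**Figure D2:**
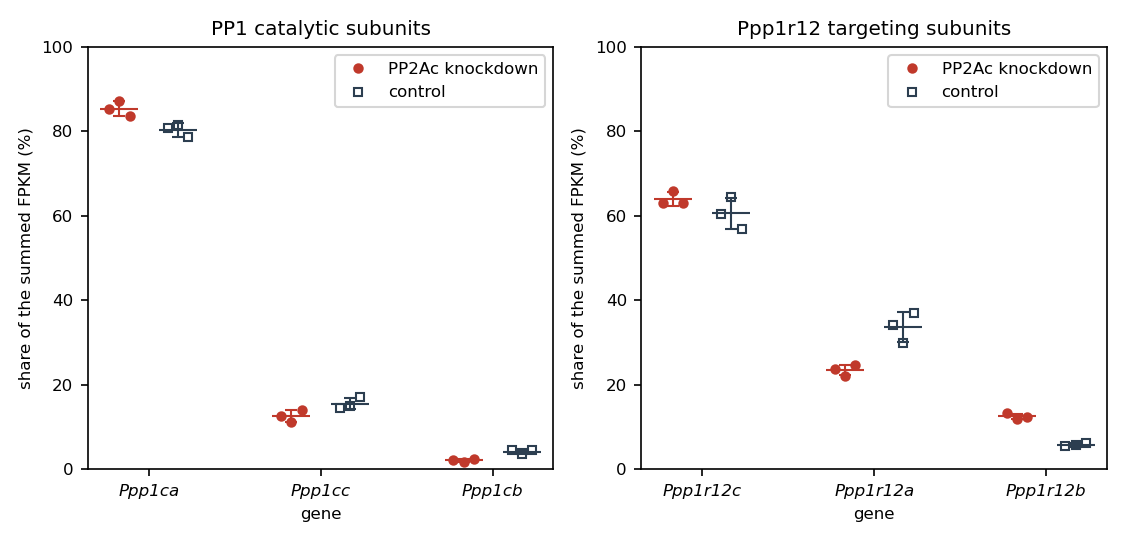
Share of the summed FPKM, in percent, taken by each catalytic isoform gene (left) and by each Ppp1r12 targeting subunit gene (right), 1 symbol per library, with the mean and SD of PP2Ac knockdown (circles, left of each pair) and control (squares). Ppp1ca and Ppp1r12b took larger shares and Ppp1cb and Ppp1r12a smaller shares in all 3 knockdown libraries than in any control library.

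Among inhibitor proteins the most abundant one rose and the kinase-switched inhibitor-1 and DARPP-32 had at most 2 reads in any library. Of 10 inhibitor genes 4 were tested, and 1 was higher, none lower and 3 not past the threshold, where 62.4% of all tested genes were called. Ppp1r14b (ENSMUSG00000056612, chromosome 19, 6975048 to 6977324, plus strand), which encodes PHI-1, a phosphorylation-dependent inhibitor of myosin phosphatase, had 334, 398 and 388 FPKM in knockdown and 273, 293 and 255.6 FPKM in control. It had the highest mean of the 41 genes over the 6 libraries, just above Ppp1ca, and its groups did not overlap (log2 fold change 0.44, SE 0.0932, limma adjusted p = 0.0035). Of its 31-base words 24.3% recur in other genes, most in Gm7332, so its reads may have been divided.

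Ppp1r2, which encodes inhibitor-2, had 20.4, 18.6 and 21.9 FPKM in knockdown and 24.5, 20.4 and 21.4 FPKM in control, and Ppp1r11, which encodes inhibitor-3, had 50.0, 57.4 and 52.4 FPKM in knockdown and 54.5, 55.6 and 46.4 FPKM in control. Both pairs of groups overlapped, and neither gene passed the threshold (log2 fold changes -0.12 with SE 0.091 and 0.03 with SE 0.0906). Ppp1r2 did pass, at -0.27 with limma adjusted p = 0.0351, when the mitochondrial genome's genes, rRNA and Gm23935 were dropped, and of its 31-base words 10.7% recur elsewhere, most in the pseudogene Ppp1r2-ps4. Ppp1r14d, a gut- and brain-type relative of PHI-1, had 13 to 22 reads per library in knockdown and 22 to 34 in control, and its log2 fold change of -0.30 (SE 0.167) missed the threshold (limma adjusted p = 0.148); it passed with protein-coding genes only (adjusted p = 0.0273).

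Ppp1r1a, which encodes inhibitor-1, had 2 reads in knockdown library 2 and none in the other 5 libraries. At this depth 3 reads would have given at most 0.154 FPKM for Ppp1r1a. Ppp1r1b, which encodes DARPP-32, had 2, 0 and 0 reads in knockdown and 0, 2 and 1 in control, and Ppp1r14a, which encodes CPI-17 of smooth muscle, had 2, 0 and 1 reads in knockdown and 1, 0 and 1 in control. Ppp1r1c, Ppp1r14c and Ppp1r17 were listed at 0 in all 6 libraries. Differences in these 6 inhibitors were not detectable at this depth.

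Of the subunits that target PP1 to glycogen, which are the Ppp1r3 genes, 5 of 7 were listed at 0 in all libraries. These were Ppp1r3a of muscle, Ppp1r3b of liver, Ppp1r3c, Ppp1r3d and Ppp1r3g, for which 3 reads would have given at most 0.0288 to 0.0745 FPKM. Ppp1r3e (ENSMUSG00000072494, chromosome 14, 54872669 to 54877550, minus strand) was the one tested, with 1.44, 1.56 and 1.63 FPKM in knockdown and 0.847, 0.977 and 0.729 FPKM in control. Its groups did not overlap, with a log2 fold change of 0.46 (SE 0.118, limma adjusted p = 0.00908), and it rests on 56 to 61 reads per library in knockdown and 30 to 38 in control. Its mean passed the filter of 1 FPKM only through the knockdown libraries, as the control mean was 0.851 FPKM, so its place among the higher genes rests in part on that filter. Without a filter the adjusted p was 0.023. On a scale with a pseudocount of 0.01 its log2 fold change was 0.86. Ppp1r3f had 39, 49 and 48 reads in knockdown and 39, 34 and 39 in control, and did not pass in the fit without a filter on low values (adjusted p = 0.312). Of the 31-base words of Ppp1r3f 46.8% recur in other genes, most in Gm36995, so its reads may have been divided. Gm36995 overlaps Ppp1r3f on the same strand and held 8 reads over the knockdown libraries and 16 over the control libraries.

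Of the 4 tested genes of the myosin phosphatase targeting family 2 were higher in knockdown, 1 was lower and 1 did not pass the threshold. Over all tested genes 33.3% were higher and 29.1% lower. Ppp1r12b (ENSMUSG00000073557, chromosome 1, 134754658 to 134955942, minus strand), which encodes MYPT2 of heart and striated muscle, had 6.07, 5.77 and 5.71 FPKM in knockdown and 2.46, 2.65 and 2.87 FPKM in control. The groups lay far apart beside the narrow spread within each, at 219.9% of the control mean (log2 fold change 0.91, SE 0.0805, limma adjusted p = 4.54e-05). Ppp1r12a (ENSMUSG00000019907, chromosome 10, 108162193 to 108284475, plus strand), which encodes MYPT1, the widely expressed targeting subunit, had 10.9, 10.7 and 11.4 FPKM in knockdown and 15.7, 14.0 and 17.5 FPKM in control. Knockdown libraries were close together and all below control, with a log2 fold change of -0.47 (SE 0.0874, limma adjusted p = 0.00177).

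Ppp1r12c, which encodes the third relative MBS85, had 29.1, 31.8 and 29.2 FPKM in knockdown and 27.8, 29.97 and 26.9 FPKM in control, with overlapping groups and no call (log2 fold change 0.09, SE 0.0716). The summed FPKM of the 3 Ppp1r12 genes was 46.9 ± 1.19 in knockdown and 46.6 ± 0.667 in control (two-sided exact permutation p = 0.8), while the Ppp1r12b share of it was 12.5% ± 0.622 in knockdown and 5.71% ± 0.361 in control, and the Ppp1r12a share 23.5% ± 1.25 in knockdown and 33.7% ± 3.52 in control (SD, n = 3 each; exact permutation p = 0.1 for both shares, the smallest possible). In recovered reads Ppp1r12b took 27.0% ± 1.04 in knockdown and 13.02% ± 0.683 in control, and Ppp1r12a 27.1% ± 1.22 in knockdown and 41.1% ± 3.54 in control. The deposited lengths are 2.36 times the longest coding transcript for Ppp1r12a and 1.70 times for Ppp1r12b, so the ratio between their levels depends on the length used. Ppp1r16a, which encodes the membrane-anchored relative MYPT3, had 8.84, 10.5 and 9.46 FPKM in knockdown and 7.51, 8.23 and 7.99 FPKM in control (log2 fold change 0.25, SE 0.0807, limma adjusted p = 0.0257). That call was lost without knockdown library 2 (adjusted p = 0.0879) and without control library 1 or 3 (adjusted p of 0.0797 and 0.0529). Ppp1r16b, which encodes TIMAP of endothelial cells, had 0, 0 and 1 reads in knockdown and 1, 3 and 4 in control.

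The sequence before the start sites is shown for Ppp1r12a and Ppp1r12b, the family members that moved in opposite directions, and for Ppp1cb, whose fall was close in size to that of Ppp1r12a. The sequences are RefSeq's (GRCm38.p6), 5′ to 3′ on the gene's strand, cut where the first GENCODE M21 exon begins. Capitals mark matches on either strand to the motifs searched, which in these windows are 1 GC box (GGGCGG) in Ppp1cb, whose full 250 bases hold 2, and the CCAAT box at the downstream start of Ppp1r12b.
Ppp1r12a, chr10:108161848-108162097, plus strand: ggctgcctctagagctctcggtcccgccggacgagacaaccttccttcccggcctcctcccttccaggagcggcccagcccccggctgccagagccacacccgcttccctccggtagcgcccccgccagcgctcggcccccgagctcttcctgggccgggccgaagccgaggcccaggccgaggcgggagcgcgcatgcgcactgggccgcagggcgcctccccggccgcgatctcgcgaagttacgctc
Ppp1r12b, downstream start, chr1:134803852-134804092, minus strand: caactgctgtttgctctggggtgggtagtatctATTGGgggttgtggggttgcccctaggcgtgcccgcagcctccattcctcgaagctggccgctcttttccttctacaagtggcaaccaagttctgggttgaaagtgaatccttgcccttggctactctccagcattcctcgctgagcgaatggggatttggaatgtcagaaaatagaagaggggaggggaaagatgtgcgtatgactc
Ppp1r12b, upstream start, chr1:134955943-134956190, minus strand: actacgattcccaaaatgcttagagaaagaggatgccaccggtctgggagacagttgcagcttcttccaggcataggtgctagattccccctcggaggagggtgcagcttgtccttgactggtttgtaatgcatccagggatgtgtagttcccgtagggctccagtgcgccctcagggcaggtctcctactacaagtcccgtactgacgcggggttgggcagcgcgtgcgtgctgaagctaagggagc
Ppp1cb, chr5:32458720-32458842, plus strand: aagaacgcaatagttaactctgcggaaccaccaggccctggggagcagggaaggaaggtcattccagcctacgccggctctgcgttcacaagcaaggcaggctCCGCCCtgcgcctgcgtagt
The GC content of the full 250 bases before the start was 75.2% for Ppp1r12a and 65.2% for Ppp1cb, with 30 and 24 CG pairs. It was 52.8% at the downstream start of Ppp1r12b, with 7 CG pairs, and 56.8% at the upstream start, with 11. RefSeq starts were found for 33 of the 41 genes. Over their 41 promoters the median was 63.2% GC and 18 CG pairs, against 52.4% and 6 over all 32851 promoters, and a GC box was present on either strand in 61.0% of the PP1 promoters and in 32.7% of all. The set of all promoters, of 27025 genes, was not limited to protein-coding or expressed genes. It is therefore unlike the PP1 set, and whether the excess is particular to PP1 genes was not tested. A CCAAT box (CCAAT) was present in 26.8% of the PP1 promoters and in 33.8% of all, TATAAA in 12.2% and 12.4%, the cyclic AMP response element TGACGTCA in 2.44% and 1.55%, and the E-box CACGTG in 7.32% and 6.02%. Promoters of the genes called higher had a median GC content of 66.4% (13 promoters of 8 genes) and those of the genes called lower 65.2% (5 promoters of 4 genes). None of the 5 motifs contains another, and a match describes the letters of a window, not a site.

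Of the 3 nuclear subunit genes 1 was higher and 2 were lower, each by under 0.3 on the log2 scale, where 62.4% of all tested genes were called. Ppp1r10, which encodes PNUTS, a scaffold that acts on RNA polymerase II at transcript ends, had 17.2, 17.6 and 15.8 FPKM in knockdown and 14.7, 14.5 and 12.1 FPKM in control (log2 fold change 0.28, SE 0.0888, limma adjusted p = 0.0246). Its groups were separate, and the call was lost without knockdown library 1 or 2 (adjusted p of 0.072 and 0.0759) or control library 3 (adjusted p = 0.0756). Ppp1r8, which encodes NIPP1, a nuclear inhibitor that binds splicing factors, had 29.0, 30.04 and 30.8 FPKM in knockdown and 37.1, 33.3 and 33.5 FPKM in control (log2 fold change -0.20, SE 0.0694, limma adjusted p = 0.0327). That call was lost without knockdown library 1 or 2 (adjusted p of 0.107 and 0.0709) or control library 1 (adjusted p = 0.103).

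Ppp1r7, which encodes SDS22, a conserved partner of newly made PP1, had 3.89, 4.34 and 4.20 FPKM in knockdown and 5.84, 4.67 and 5.22 FPKM in control (log2 fold change -0.28, SE 0.0919, limma adjusted p = 0.029). Its call was lost without knockdown library 1 or 3 (adjusted p of 0.0963 and 0.0553) and without control library 1 or 3 (adjusted p of 0.101 and 0.0629). Ppp1r7 overlaps Pask, a kinase gene on the opposite strand, by 629 bases, and Pask had a mean of 4.56 FPKM in knockdown and 3.92 FPKM in control.

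**Figure D3:**
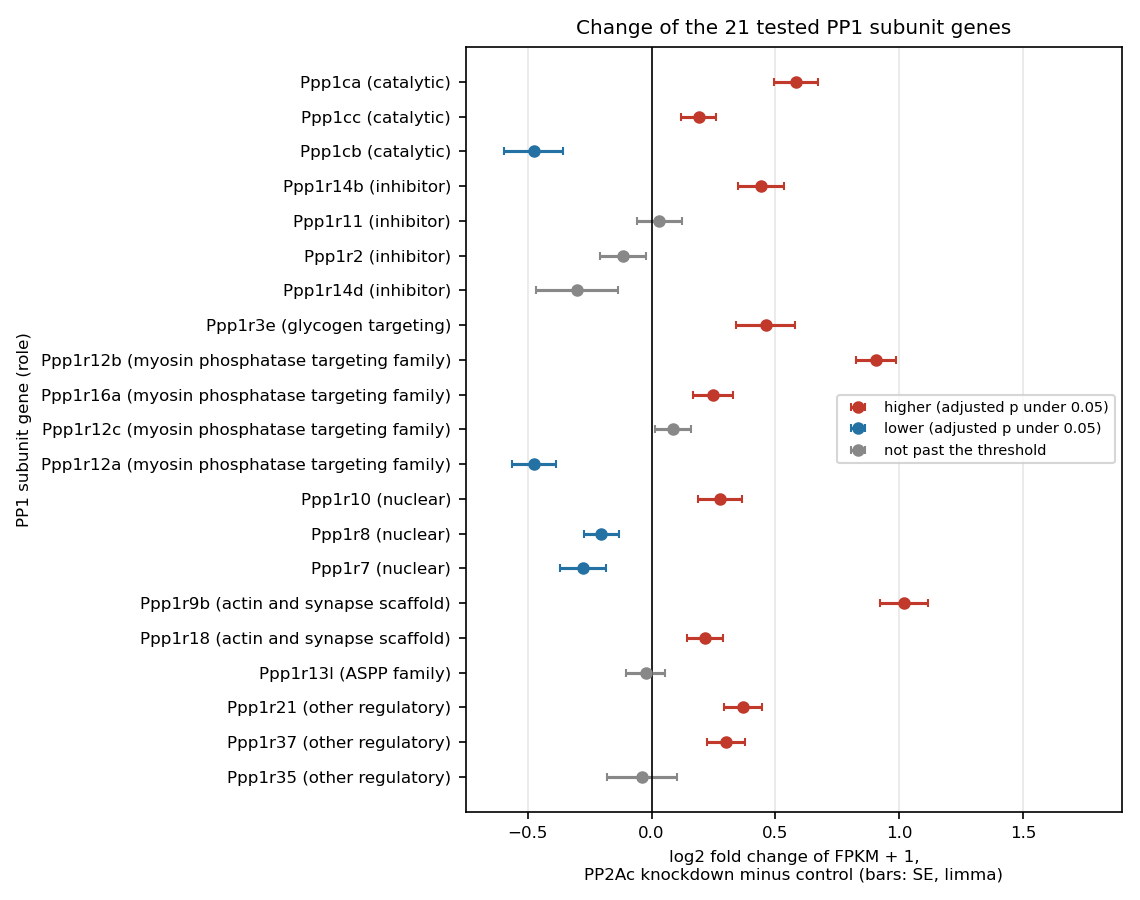
Log2 fold change of FPKM + 1, PP2Ac knockdown minus control, with limma SE as bars, for the 21 tested PP1 subunit genes ordered by role. Ppp1r9b and Ppp1r12b lie furthest right at 1.02 and 0.91, and Ppp1cb and Ppp1r12a furthest left at -0.48 and -0.47.

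Both tested scaffold genes of the actin cytoskeleton were higher in knockdown, where 33.3% of all tested genes were higher. Ppp1r9b (ENSMUSG00000038976, chromosome 11, 94991035 to 95006899, plus strand), which encodes spinophilin, an actin-binding scaffold best known from dendritic spines, had 38.8, 47.6 and 37.2 FPKM in knockdown and 20.2, 20.1 and 18.9 FPKM in control. All knockdown libraries were well above control, at 209% of the control mean (log2 fold change 1.02, SE 0.0973, limma adjusted p = 6.21e-05), with 2822 to 3705 reads per library in knockdown and 1576 to 1641 in control. Its log2 fold change was above that of Ppp1r12b with a pseudocount of 1 and below it with 0.1 (1.05 for Ppp1r9b and 1.11 for Ppp1r12b), with 0.01 and with voom. Ppp1r9a, which encodes its neuronal relative neurabin, had no read in knockdown and 1 read over the 3 control libraries. Ppp1r18, which encodes phostensin, an actin-capping protein, had 28.9, 32.7 and 30.9 FPKM in knockdown and 27.7, 26.2 and 25.4 FPKM in control (log2 fold change 0.21, SE 0.0722, limma adjusted p = 0.0299). Its call was lost without knockdown library 2 or 3 (adjusted p of 0.0997 and 0.0634) and without control library 2 or 3 (adjusted p of 0.0755 and 0.0928). The Ppp1r18 call was also lost under both rescalings (limma adjusted p of 0.246 and 0.557).

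Of the 2 ASPP genes, whose proteins bind p53, Ppp1r13l passed the filter and Ppp1r13b did not. Ppp1r13l, which encodes iASPP, an inhibitor of p53, had 9.56, 8.24 and 8.34 FPKM in knockdown and 9.21, 9.09 and 8.31 FPKM in control, with overlapping groups (log2 fold change -0.02, SE 0.0805, limma adjusted p = 0.81). Ppp1r13b, which encodes ASPP1, a stimulator of p53, had 113, 95 and 90 reads in knockdown and 30, 19 and 14 in control, or 1.48, 1.25 and 1.22 FPKM in knockdown and 0.379, 0.247 and 0.172 FPKM in control. It was higher in the fit without a filter on low values (log2 fold change 0.87, SE 0.106, limma adjusted p = 0.0021), in which 30.1% of 26998 genes were called. The Ppp1r13b locus overlaps Zfyve21 on the opposite strand by 3736 bases, and Zfyve21 had a mean of 9.81 FPKM in knockdown and 7.47 FPKM in control, so reads of both genes cannot be told apart there if strand was not used.

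Among the remaining regulatory subunits tested 2 were higher and 1 did not pass, where 33.3% of all tested genes were higher. Ppp1r21, which encodes an endosomal protein of the FERRY complex, had 12.3, 11.4 and 12.3 FPKM in knockdown and 9.75, 8.36 and 9.08 FPKM in control (log2 fold change 0.37, SE 0.0768, limma adjusted p = 0.00329). Ppp1r37, which encodes a leucine-rich repeat subunit, had 26.4, 29.0 and 25.1 FPKM in knockdown and 21.5, 22.9 and 20.5 FPKM in control (log2 fold change 0.30, SE 0.0778, limma adjusted p = 0.00973). For both genes the knockdown libraries lay above all control libraries, but the Ppp1r37 call was lost under both rescalings (adjusted p of 0.0574 and 0.189). Ppp1r35, which encodes a centrosomal protein, had 23.8, 36.1 and 26.9 FPKM in knockdown and 27.4, 31.8 and 28.9 FPKM in control. Its knockdown libraries spanned the control range on both sides, with library 2 the highest of all 6 (log2 fold change -0.04, SE 0.141, limma adjusted p = 0.831).

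Of 5 other regulatory genes under the filter, 2 were lower in knockdown in the fit without it, Ppp1r32 and Ppp1r42. That fit called 30.1% of 26998 genes in either direction. Ppp1r32 had 6, 9 and 10 reads in knockdown and 36, 25 and 23 in control, and Ppp1r42, a leucine-rich repeat gene of testis, had 1, 0 and 0 reads in knockdown and 10, 5 and 9 in control. Neither pair of groups overlapped (log2 fold changes -0.67 and -0.39, limma adjusted p of 0.0121 and 0.00663). Ppp1r27, a small ankyrin repeat subunit gene, had 3, 1 and 2 reads in knockdown and 5, 15 and 6 in control. Its groups did not overlap either, but it did not pass (limma adjusted p = 0.1001). Ppp1r36 had no read in knockdown and 1 read in control library 3, and Ppp1r26 was listed at 0 throughout. Floors of 3 reads cover counting error only.

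**Figure D4:**
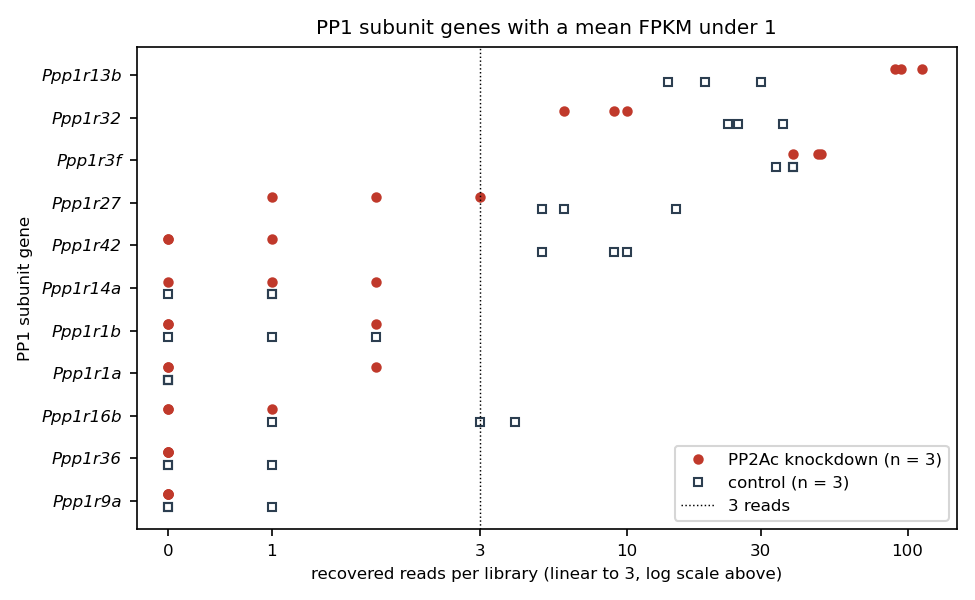
Recovered reads per library of the 11 PP1 subunit genes above 0 with a mean FPKM under 1, on an axis that is linear to 3 reads and logarithmic above, with PP2Ac knockdown as filled circles and control as open squares. Ppp1r13b lies higher in knockdown at 90 to 113 reads, Ppp1r32 and Ppp1r42 lie lower in knockdown, and the inhibitor genes Ppp1r14a, Ppp1r1b and Ppp1r1a do not exceed 2 reads in any library.

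Other genes of PP1 biology were read from the same fit, from lists chosen for this account. Of 30 PP1 partners without a Ppp1 symbol 23 were tested, with 10 higher, 10 lower and 3 not past the threshold, against 62.4% called over all tested genes. Wdr82, the partner of PNUTS in the PTW phosphatase complex, averaged 22.3 ± 0.844 FPKM in knockdown and 12.97 ± 0.413 FPKM in control, and Akap1, a mitochondrial anchor for protein kinase A and PP1, 19.4 ± 0.318 FPKM in knockdown and 8.58 ± 0.594 FPKM in control. Tprn, which encodes taperin, averaged 16.97 ± 1.39 FPKM in knockdown and 9.47 ± 0.337 FPKM in control, while Rif1, which brings PP1 to replication origins, fell to 3.85 ± 1.01 FPKM in knockdown, against 12.7 ± 1.39 FPKM in control (SD, n = 3 each; limma adjusted p of the 4 from 1.07e-05 to 7.5e-05).

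All 6 subunit genes of protein kinase A, the kinase that phosphorylates inhibitor-1 and DARPP-32, were tested, with 4 higher, 1 lower and 1 not past the threshold, where 33.3% of all tested genes were higher and 29.1% lower. Prkar1b and Prkar2b, regulatory subunit genes, averaged 12.15 ± 1.25 and 19.9 ± 1.10 FPKM in knockdown and 4.66 ± 0.469 and 8.16 ± 0.688 FPKM in control. The catalytic subunit genes moved in opposite directions, with Prkaca at 75.4 ± 4.94 FPKM in knockdown and 47.6 ± 2.22 FPKM in control, and Prkacb at 8.83 ± 0.337 FPKM in knockdown and 13.4 ± 0.773 FPKM in control. Log2 fold changes were 1.21, 1.19, 0.65 and -0.55 in that order of genes.

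Of 19 glycogen enzyme genes 13 were tested, with 5 higher, 3 lower and 5 that missed the threshold, a share called near the 62.4% of all tested genes. Pygb, the brain-type glycogen phosphorylase gene, averaged 30.4 ± 2.71 FPKM in knockdown and 12.5 ± 1.41 FPKM in control, and Gbe1, the branching enzyme gene, 6.22 ± 0.423 FPKM in knockdown and 2.78 ± 0.199 FPKM in control. Stbd1, a glycogen-binding protein gene, averaged 6.13 ± 0.842 FPKM in knockdown and 13.4 ± 0.434 FPKM in control, and Gsk3b, whose kinase acts on both glycogen synthase and inhibitor-2, 9.36 ± 0.126 FPKM in knockdown and 15.9 ± 0.666 FPKM in control. In the list of myosin light chain genes and their regulators 14 of 17 genes were tested, with 5 higher, 3 lower and 6 not past the threshold, a share called below that 62.4%. The 3 lower genes were the kinase genes Rock1 and Rock2, whose products phosphorylate MYPT1, and Rhoc. Rock1 averaged 4.73 ± 0.909 FPKM in knockdown and 10.5 ± 0.850 FPKM in control, and Rock2 5.58 ± 1.06 FPKM in knockdown and 14.2 ± 1.55 FPKM in control. Rhoc averaged 113 ± 10.6 FPKM in knockdown and 204 ± 14.0 FPKM in control. Myh14, a non-muscle myosin heavy chain gene, was higher at 12.7 ± 0.721 FPKM in knockdown, against 7.81 ± 0.939 FPKM in control (SD, n = 3 each).

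**Figure D5:**
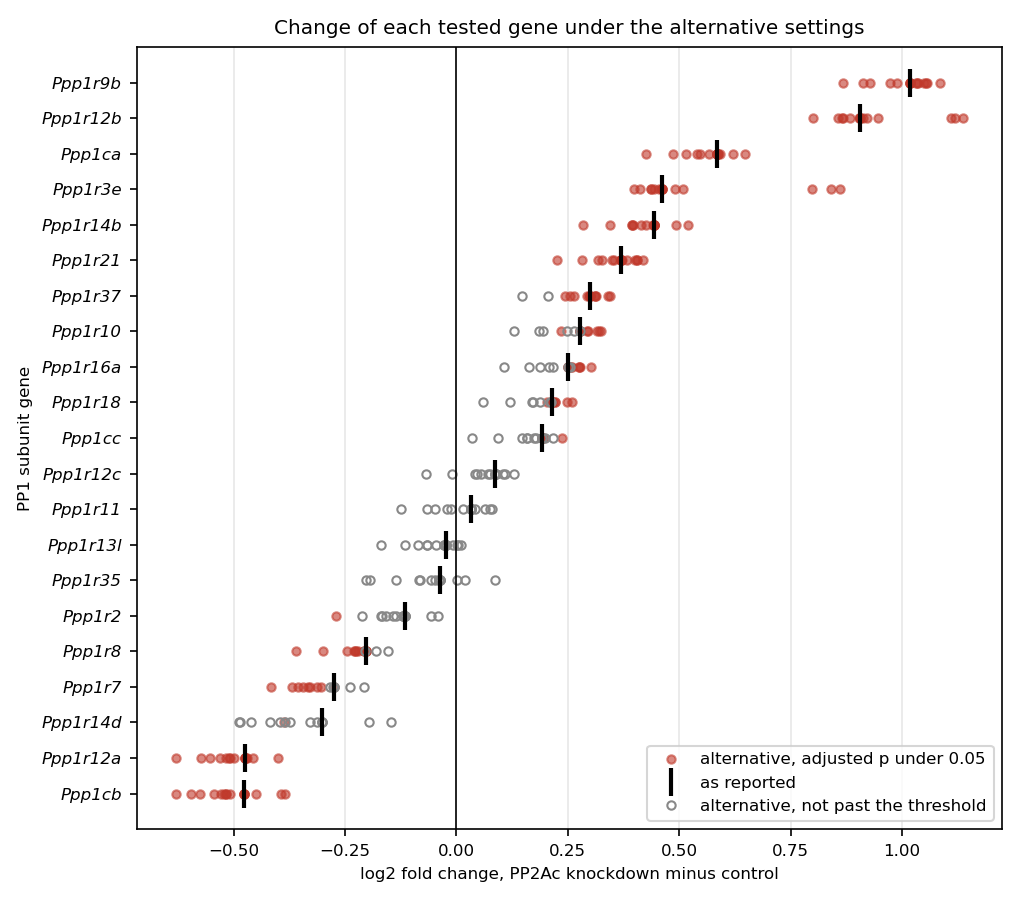
Log2 fold change of each tested PP1 subunit gene, PP2Ac knockdown minus control, as reported (black bar) and under each alternative setting (circles, filled where limma's adjusted p was under 0.05). Ppp1r9b, Ppp1r12b, Ppp1ca, Ppp1r3e, Ppp1r14b, Ppp1r21, Ppp1r12a and Ppp1cb passed under every alternative that tested them, and Ppp1cc passed under 5 of 16. Ppp1r12b and Ppp1r3e were not tested with the filter at a mean of 5 FPKM. Ppp1r3e reached the filter of 1 FPKM only through its knockdown libraries.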

How the data were processed

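The authors deposited 1 table of FPKM values for 6 libraries, with gene names, positions, strand, biotype and gene length. Genome builds are GRCm38 and mm10, per the submitters' processing notes; how reads were aligned and counted, and whether by strand, was not given in the sources used here. Trizol and an Illumina TruSeq kit were used, per the labels' protocols. In each library the product of FPKM and gene length moved in steps of 1 read, and reads were recovered from it. In these steps 100% of values above 0 fell within 0.01 of an integer, or within a margin proportional to the value where that was wider. A gene at 0 was set against 3 reads per library.

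Differences were fitted with limma 3.58.1 in R 4.3.3 (lmFit, eBayes with a trend) on log2(FPKM + 1) over genes averaging 1 FPKM or more, using Benjamini-Hochberg adjustment at 0.05. Shares were compared by two-sided exact permutation tests. The fit was also run on simulated data (11800 genes, 200 changed). It recovered 36.1% of 1.5-fold, 92.5% of 2-fold and 100% of 4-fold changes, with 6.45% of calls false. The simulated counts had the same dispersion for every gene, and far more genes, 62.4%, were called in the data. These rates may therefore not hold for the data. Promoters came from RefSeq and transcripts from GENCODE M21. Python 3.11.15, pandas 2.3.3 and scipy 1.17.1 were used.

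The members and lists were chosen with earlier results of these data known. The named genes are the catalytic genes, the 12 largest rises and falls past the threshold, the 6 highest tested members not past it, and up to 4 genes per list with the smallest p. No libraries were merged, since reads within groups differed by more than sampling noise (chi-square over degrees of freedom 6.58 to 10.03). Alternatives were other pseudocounts, filters, scalings and variance models, voom, the replicate number as a block and omission of each library; the catalytic shares by transcript length were added after seeing the data.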

Additional observations from a re-analysis of the deposited data

How the results depend on the processing

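All 15 called PP1 genes kept their direction under each of the up to 16 alternatives that tested them. Of these genes 8 kept their call under all of these alternatives, and the other 7 lost it under at least 1. Ppp1r3e, 1 of the 8, reached the filter of the main fit only through its knockdown libraries. Libraries with the same replicate number did not deviate together (correlations -0.011, 0.159 and 0.052), so the numbers are not read as pairing. The replicate block left 11 higher and 3 lower PP1 genes, the lost call being Ppp1r7 (adjusted p = 0.0533), and 3919 higher and 3444 lower among all genes. The count of higher PP1 genes was 6 with protein-coding genes only and 6 without mitochondrially encoded genes, rRNA and Gm23935, and 7 to 9 when any 1 library was left out; the count of lower ones was 2 to 4. A filter at a mean of 5 FPKM left 2208 lower genes among all, since fewer genes were tested. Over leave-one-out fits the Ppp2ca log2 fold change was -1.76 to -1.61 and kept its call. Of the 6 genes not called, 4 turned direction, none of them past the threshold. Ppp1r12c was -0.010 with protein-coding genes only and -0.069 without mitochondrially encoded genes, rRNA and Gm23935, settings under which Ppp1r11 was -0.066 and -0.13. Ppp1r11 was also -0.013 with median-of-ratios scaling, and ran from -0.049 to 0.080 over leave-one-out fits, Ppp1r13l from -0.086 to 0.010 and Ppp1r35 from -0.20 to 0.088. The causes were not tested. Leave-one-out differences in share were 4.12 to 5.89 percentage points for Ppp1ca, -2.42 to -1.90 for Ppp1cb and -3.65 to -2.17 for Ppp1cc. Depth leaves the 11 genes under 1 FPKM and the 9 at 0 least certain.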
